A study of Mus musculus with 4 samples.

Results

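Stretches of chromatin acetylated on lysine 16 of histone H4 (H4K16ac) that were called in neural progenitor cells (NPC), but not in the embryonic stem cells (ESC) they came from, were examined where they had a middling width and lay at a middling distance from any ESC stretch. Such called stretches are termed islands. The members were chosen by their measured width, density and distance: NPC islands on chromosomes 1 to 19, wider than 2000 bp and narrower than 8000 bp, with fewer than 120 reads per kb. They shared no base with an ESC island, and the nearest ESC island lay more than 10 kb and at most 100 kb away, counted as the bases between the edges. There were 10995 such islands among 48278 NPC islands, and 88848 islands in the lists of both cell types.

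Both cell types derive from 46c, a mouse ES cell line that carries GFP at Sox1, a gene active in early neural progenitors. ESC were undifferentiated, and NPC were obtained by 5 days of culture with NB27 and Neuro2 supplements and sorted for GFP, so that each group rests on the same reporter line. The series has 4 libraries, namely 1 H4K16ac ChIP library and 1 input library of MNase-digested chromatin per cell type, and it asked how the mark is distributed before and after neural differentiation. Values below come from the ChIP reads in called islands, 24386370 in NPC and 17935144 in ESC. With 1 library per cell type, and members chosen on the same 2 lists, no difference was tested and none has a replicate check. All positions are on mm9, and without a gene annotation of that build the islands are described by position, so that the NPC label could not be checked at Sox1.

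Histone H4 lysine 16 lies in the H4 tail, which contacts neighbouring nucleosomes, and its acetylation weakens the folding of nucleosome arrays in vitro. MOF (KAT8), an acetyltransferase that works in the MSL and NSL complexes, deposits most of it, and deacetylases such as SIRT1 remove it. In mouse cells the mark is found at active genes and at enhancers, often as broad low enrichment rather than sharp peaks, which is why island callers are used for it.

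The members were the most numerous kind of NPC-only island of their width and density. Of 48170 NPC islands on chromosomes 1 to 19, 31481 (65.4%) shared no base with an ESC island. In the width and density range used here the count was 19397 of 27635 (70.2%). Members were 10995 of those 19397, or 56.7%. Another 6854 lay at most 10 kb from an ESC island, and 1548 lay more than 100 kb away. These shares follow from the rule and are given as a description. Members held 3409662 reads, 14.0% of all NPC island reads (exact 95% interval 13.97% to 14.00%, which covers counting error only). They covered 46.6 Mb of the 306 Mb under NPC islands on these chromosomes.

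Reads per member ran from 121 to 818, with a median of 281 and quartiles of 208.5 and 391. Widths ran from 2200 to 7800 bp with a median of 4000 bp, and narrow members were the more frequent, with 718 islands at 2200 bp and 163 at 7800 bp. Reads grew with width in near proportion: the median was 164.5 reads at 2200 bp, 285 reads at 4000 bp and 571 reads at 7800 bp. Density, the reads per kb of island, therefore hardly depended on width. Its median was 74.8 reads per kb at 2200 bp, 71.3 at 4000 bp and 73.2 at 7800 bp.

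Density ranged from 43.1 to 119.7 reads per kb with a median of 72.2 and quartiles of 65.8 and 79.6. The SD across members was 10.5 reads per kb, or 14.3% of the mean, close to the SD of 10.6 in NPC-only islands at most 10 kb from an ESC island and 9.86 beyond 100 kb. Counting error alone, if reads were independent, would give 4.44 reads per kb. That is a lower bound on technical spread, since duplicate removal is not known. Few reached the upper part of the allowed range, with 156 members (1.42%) at 100 reads per kb or more. Among islands of the same width and density limits the share was 1.97% for NPC-only islands at most 10 kb from an ESC island, 0.840% beyond 100 kb and 3.25% for those overlapping an ESC island. At the lower end, 988 members (8.99%) had fewer than 60 reads per kb, and the same sets had 6.36%, 12.3% and 5.92%. Members thus lay between the nearer and the farther islands at both ends.

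**Figure D1:**
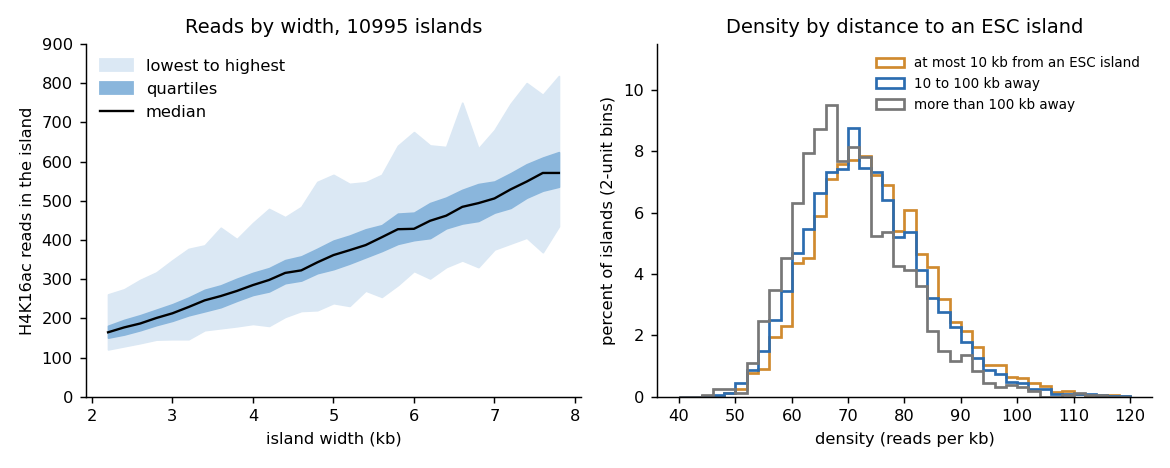
Left, H4K16ac reads (y axis) by island width in kb (x axis) for the members, with the median, the quartiles and the full range at each width; the median rises from 164.5 reads at 2200 bp to 571 at 7800 bp. Right, density in reads per kb (x axis) as percent of islands (y axis) for NPC-only islands at 3 distances from an ESC island, with medians of 73.6, 72.2 and 69.2 reads per kb from near to far.

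The ESC list held calls at densities like those of the members. Of 20645 ESC islands in the same width range, 5336 (25.8%) were less dense than the median member, and the lowest had 45.7 reads per kb. Their median was 83.7 reads per kb. These are reads as deposited, not scaled to depth, and the full depth of the libraries is unknown. Reads outside called islands are not part of the lists. ESC acetylation below the calling limit at a member was therefore not measured, and no fold change can be given.

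Values just inside and just outside the limits of the rule are given as a description. Islands of 2000 bp that otherwise qualified numbered 665, with a median of 76.5 reads per kb, beside 74.8 in the 718 members of 2200 bp. At the upper width limit, 137 islands of 8000 bp had a median of 73.5 reads per kb, beside 73.2 in members of 7800 bp. On the near side, 94 members at 10200 bp from an ESC island had a median of 71.9 reads per kb, and 77 islands at 10000 bp had 71.5. At the far limit, 3 members at 100000 bp had a median of 55.9 reads per kb and 5 islands at 100200 bp had 74.1, too few to compare. The density limit left out 20 islands, the least dense of them at 120 reads per kb, next to the densest member at 119.7.

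Members were compared with the NPC-only islands of the same width and density limits nearer to and farther from ESC islands. The rule separates these sets by distance alone, but they also differed in width and in spacing to other NPC islands. Median density was 73.6 reads per kb at 10 kb or less, 72.2 in the members and 69.2 beyond 100 kb. Median reads were 297, 281 and 253 in that order. Median widths were 4000, 4000 and 3600 bp. The steps between medians were 1.44 and 2.95 reads per kb. With median intervals that treat islands as independent draws, the near set minus the members spanned 0.93 to 1.98 reads per kb, and the far set minus the members -3.72 to -1.92. The rule used both density and distance, so these are descriptions. Islands of this width and density that overlapped an ESC island had the highest median, 74.3 reads per kb.

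Within the members, distance to the nearest ESC island had a median of 28.6 kb and was skewed to the near side. The nearest class, over 10 to 20 kb, held 3559 members (32.4%), and the last, over 90 to 100 kb, held 288 (2.62%). Median density was 72.5 reads per kb at 10 to 20 kb, 72.9 at 20 to 30 kb, 71.5 at 50 to 60 kb and 70 at 90 to 100 kb. Median reads went from 288 to 246 between the first and the last of these classes. Across the 10995 members the Spearman rho of density with distance was -0.043, a description over islands that share a library. The nearest ESC island lay at the lower coordinate for 5456 members (49.6%), close to an even split.

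Density was higher in members with a close NPC neighbour. The nearest NPC island of any kind lay at a median of 4.8 kb from a member. For 1750 members (15.9%) the gap was 800 bp, the smallest that the island call allows, and 3961 (36.0%) had an NPC island at most 2000 bp away. Whether such close neighbours are parts of a single stretch split by the call was not tested, and density by spacing was not recomputed with merged islands. At the other end, 3786 (34.4%) had none within 10 kb and 312 (2.84%) none within 100 kb. Median density was 76.2 reads per kb in the 2651 members with an NPC island at most 1 kb away. It was 71.5 reads per kb with gaps of 5 to 10 kb, 69.0 with gaps of 20 to 50 kb and 65.9 beyond 100 kb. Median width went from 4400 to 3000 bp over the same classes. The rho of density with this gap was -0.27, again over islands that share a library. It cannot be set against that for ESC distance, which the rule restricts to 10 to 100 kb while the NPC gap runs from 0.8 to 1654 kb.

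**Figure D2:**
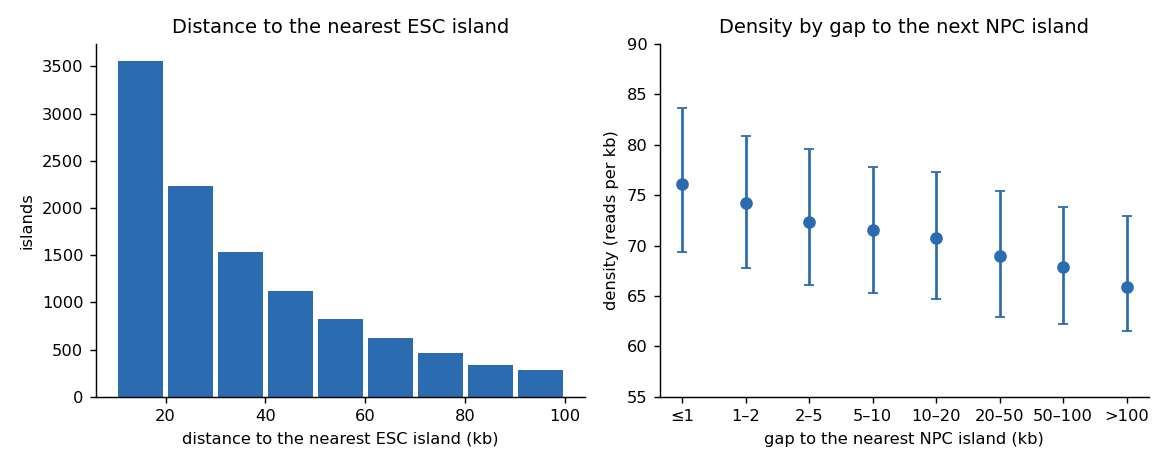
Left, number of members (y axis) by distance to the nearest ESC island in kb (x axis), from 3559 in the nearest class to 288 in the farthest. Right, median density in reads per kb (y axis) with bars for the quartiles, by gap to the nearest NPC island in kb (x axis), from 76.2 at gaps of at most 1 kb to 65.9 beyond 100 kb; the density axis starts above 0.

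The same ordering by spacing appeared in each distance class. With an NPC island at most 2 kb away, median density was 76.0 reads per kb beside ESC islands, 75.5 in the members and 72.3 beyond 100 kb. With gaps of 10 to 50 kb the values were 70.7, 70 and 68.2. With gaps above 50 kb, the 194 islands beside ESC islands had 66.4, the 836 members 67.0 and the 294 islands beyond 100 kb 65.0. No interval was computed for these classes, so the order of the members and the islands beside ESC islands is not resolved there. Spacing also differed between the sets, since 46.7% of islands beside ESC islands, 36.0% of members and 25.4% of islands beyond 100 kb had an NPC island at most 2 kb away. The part of spacing in the density difference between the sets was not tested.

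The NPC island next to a member was usually NPC-only as well, which the rule favours. Among all NPC islands on chromosomes 1 to 19, 65.4% were NPC-only. The neighbour was another member for 5225 (47.5%). It was an NPC-only island of at least 8000 bp for 1821 (16.6%) and of at most 2000 bp for 1795 (16.3%). For 1193 (10.9%) it was NPC-only in the width range but at another distance or denser. It overlapped an ESC island for 961 (8.74%), a share that the rule itself limits, as no ESC island lies within 10 kb of a member.

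Joining members separated by at most 10 kb gave clusters. A cluster of at least 2 held 4617 members (42.0%), in 1870 clusters, and the other 6378 stood alone. Merging NPC islands across gaps of up to 2000 bp lowered the share to 22.7%, and raised the median gap to the nearest NPC island from 4.8 to 11.2 kb. Most clusters were small, with 1312 of 2 members and 365 of 3 members. Clusters of at least 5 members numbered 74 and held 422 members. Members standing alone had a median of 71.0 reads per kb and 262.5 reads, those in clusters of 2 to 4 had 73.8 and 305, and those in larger clusters 74.7 and 314. Beside ESC islands 24.0% of islands, and beyond 100 kb 35.3%, lay in clusters formed in the same way. The bound of 10 kb also limits how many islands beside an ESC island can line up, so these shares are not alike in what they allow.

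The cluster with most members lay on chromosome 15, positions 58149401 to 58229200. In 79.8 kb it held 9 members and no other NPC island, and these covered 64.4% of the bases. Their reads were 218, 713, 419, 431, 336, 546, 524, 314 and 433 in order of position. Their densities lay between 67.2 and 96.4 reads per kb with a median of 72.7. The highest was the second island, positions 58153601 to 58161000, whose 713 reads over 7400 bp gave 96.4 reads per kb (exact Poisson 95% interval 89.4 to 103.7, counting error only). The next highest of the 9 had 82.9 reads per kb. The cluster sat between ESC islands, with its members 17.4 to 66.6 kb from the nearest one.

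**Figure D3:**
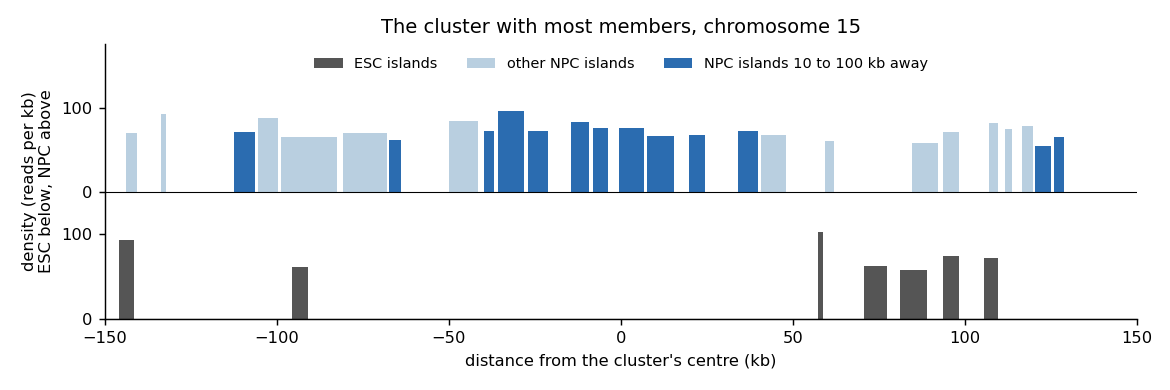
ESC islands (lower track) and NPC islands (upper track) around the cluster of 9 members on chromosome 15, drawn to scale by distance from its centre in kb (x axis), with bar height for density in reads per kb; members are dark blue. The 9 central dark bars reach 67.2 to 96.4 reads per kb, and no ESC island is drawn under them.

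Clusters of 8 members numbered 6, and the 4 of them with most reads are described here. None of the 4 had another NPC island inside its span. On chromosome 9, positions 118695601 to 118754400, 3221 reads fell in 58.8 kb, of which members covered 70.4%. On chromosome 17, positions 57417801 to 57472000, the count was 2729 reads in 54.2 kb. A cluster on chromosome 3, positions 153166801 to 153227600, had 2332 reads in 60.8 kb and the widest range of density of these 4, from 62.9 to 104 reads per kb. Another on chromosome 17, positions 74217201 to 74277000, had 2234 reads in 59.8 kb. Median density in these clusters was 70.3 to 76.1 reads per kb, within the quartiles of all members.

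The members with most reads were wide ones in the upper part of the allowed density range. On chromosome 7, positions 86914601 to 86922400, 818 reads over 7800 bp gave 104.9 reads per kb (97.8 to 112.3). Its nearest ESC island lay 13.8 kb away. On chromosome 5, positions 35553001 to 35560400, 800 reads over 7400 bp gave 108.1 reads per kb (100.7 to 115.9). The next were at 76142001 to 76149800 on chromosome 10 with 798 reads, and at 62273601 to 62281400 and 136680001 to 136687800 on chromosome 4 with 794 and 781 reads. In the surrounding 500 kb on either side, NPC islands had median densities of 77.0 to 88.3 reads per kb. The choice by reads among islands under 8000 bp fixes a high density for these 5, so no comparison is drawn from that. The intervals of these 5 overlapped, and their order by reads is not resolved.

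The densest members were narrower. Positions 194052801 to 194056400 on chromosome 1 held 431 reads over 3600 bp, or 119.7 reads per kb (108.7 to 131.6). Positions 25364801 to 25367000 on chromosome 15 held 261 reads over 2200 bp, or 118.6 reads per kb (104.7 to 133.9). The latter stood in sparse surroundings, with the next NPC island 125.2 kb away, 11 others within 500 kb and a median of 70.9 reads per kb among them. Next came a member starting at 139303001 on chromosome 5 with 117.8 reads per kb, another at 60645801 on chromosome 10 with 117.7, and 1 at 88814601 on chromosome 6 with 117.2. Each of these 3 had an NPC island 0.8 to 3.2 kb away.

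At the low end, positions 55656201 to 55660400 on chromosome 3 held 181 reads over 4200 bp, or 43.1 reads per kb (37.0 to 49.9). The next were at 32081001 on chromosome 13 with 44.6 reads per kb, 52810201 on chromosome 19 with 45.5, 61773001 on chromosome 1 with 45.9 and 20269801 on chromosome 5 with 46.0. Their intervals overlapped one another, and the densest member exceeded the least dense 2.78-fold. The nearest ESC islands of the first 4 were not overlapped by an NPC island, and that of the last was. Among all members the nearest ESC island was overlapped for 42.1%, so nothing is drawn from these 5. For the member at 61773001 no overlap was possible, with its ESC island 54.6 kb away and the nearest NPC island 100 kb away. A member at the median of 281 reads, positions 174475001 to 174479000 on chromosome 1, had 70.3 reads per kb over 4000 bp (62.3 to 79.0) and lay 13 kb from an ESC island of 217 reads.

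The ESC islands nearest to the members were near the whole ESC list in width and density, but held fewer reads and were less often broad. By the rule, such an ESC island must adjoin a stretch free of ESC islands long enough to hold a member. The full list has no such requirement, so the values are given as a description. The 10995 members shared 6522 nearest ESC islands, of which 4009 (61.5%) were nearest to 1 member and 1446 (22.2%) to 2. Their median width was 2800 bp and their median density 91.7 reads per kb, beside 3000 bp and 92.5 reads per kb for all 39508 ESC islands of these chromosomes. Their median reads were 249, beside 281.5. An NPC island overlapped 39.2% of them, beside 40.8% of all ESC islands. Broad ESC islands of at least 8000 bp were 9.84% of them, beside 15.1% of all. Narrow dense islands, no wider than 2000 bp and not under 120 reads per kb, were 16.9%, beside 17.5%. Counted per member, the nearest ESC island was overlapped by an NPC island for 42.1% of members (exact 95% interval 41.2% to 43.0%). That share was 56.4% (55.2% to 57.6%) for islands at most 10 kb from an ESC island and 30.2% (27.9% to 32.5%) beyond 100 kb. These intervals treat islands as independent draws and do not cover variation between cultures.

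An ESC island was called within 100 kb on both sides for 6711 members (61.0%), and 12 had none on 1 side up to the chromosome end. The majority did not hold when only ESC islands with at least the median reads were used, which gave 42.7%. A stretch between neighbouring ESC islands must be at least 22.6 kb long to hold a member, and 18252 stretches were. Of these, 5469 (29.96%) held members, 2957 of them 1 member and 426 at least 5. Stretches with members had a median length of 93.2 kb, and those of sufficient length without one 50.6 kb. NPC islands of any kind covered a median of 15.3% of a stretch with a member.

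Members per length were most frequent in stretches of 50 to 200 kb. Stretches of 50 to 100 kb held 9.08 members per Mb and those of 100 to 200 kb 8.62 per Mb. At 22.6 to 50 kb, where the rule leaves little room, the value was 4.76 per Mb. It was 4.17 per Mb at 200 to 400 kb and 1.29 per Mb at 400 to 800 kb, where the rule leaves out the middle of the stretch. The most members in 1 stretch was 12, reached 3 times. On chromosome 7, positions 86043601 to 86293200, NPC islands of all kinds covered 54.3% of a stretch of 249.6 kb with no ESC island. The others were at 153117401 to 153278200 on chromosome 3 and 56523001 to 56734400 on chromosome 14, with 40.2% and 43.0% covered.

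At the scale of 1 Mb, members occurred widely and were most frequent where ESC coverage was intermediate. Of 2482 windows, the last of each chromosome being incomplete, 1783 (71.8%) held at least 1 member, with a median of 5 among those. The 379 windows with at least 10 members held 47.0% of all members. Windows with less than 2% of their bases in ESC islands held 1.09 members on average. The mean was 7.37 at 5 to 10%, 8.32 at 10 to 15% and 3.84 at 30% or more. Since a member must lie near an ESC island and cannot lie beside one, low values at both ends follow in part from the rule. Of 84 windows with no ESC island, 3 held a member.

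**Figure D4:**
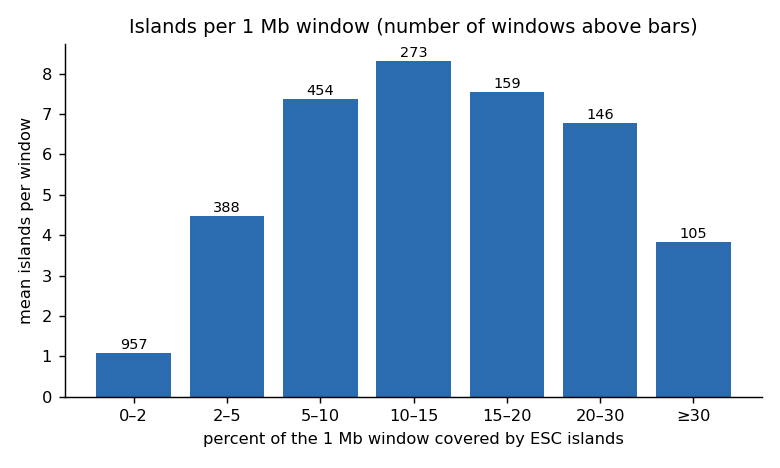
Mean number of members per 1 Mb window (y axis) by the percent of the window covered by ESC islands (x axis), with the number of windows above each bar. The mean is 1.09 below 2%, 8.32 at 10 to 15% and 3.84 at 30% or more.

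The fullest window, 58000001 to 59000000 on chromosome 15, held 26 members with 9088 reads and contains the cluster of 9. ESC islands covered 13% of it and NPC islands 31.1%. Windows at 52000001 to 53000000 on chromosome 11 and 152000001 to 153000000 on chromosome 3 held 25 members each, with 9174 and 8323 reads. On chromosome 11 NPC islands covered 52.5% of the window against 13.0% for ESC islands, and on chromosome 3 26.2% against 8.1%. The member with most reads in the chromosome 11 window, positions 52304601 to 52312400, had 588 reads at 75.4 reads per kb. That of the chromosome 3 window, positions 152211201 to 152218400, had 542 reads at 75.3 reads per kb. Both lay near the median of the NPC islands around them, 77.4 and 77.6 reads per kb. The chromosome 15 window's member with most reads, in the cluster of 9, had 96.4 reads per kb, and the local median was 72.3. Choosing members by reads favours a high density, so these values are given as a description.

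Members were found on all 19 autosomes at a narrow range of frequency. The mean was 4.45 per Mb, from 3.65 on chromosome 3 to 5.60 on chromosome 9. Chromosomes 17, 7, 11 and 5 followed chromosome 9, with 5.46, 5.35, 5.30 and 5.02 per Mb. As a share of NPC islands the order changed, from 19.2% on chromosomes 19 and 11 to 28.3% on chromosome 3. Chromosome 3 was the least covered in both lists and chromosome 11 the most, at 4.08% and 12.1% of its length in ESC. Chromosome 13 had the largest share of members among NPC-only islands of the range, 63.2%, and chromosome 11 the smallest, 52.4%.

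Median density by chromosome ran from 68.8 reads per kb on chromosome 3 to 74.7 on chromosome 11, and median reads from 259 on chromosome 3 to 302 on chromosome 11. The span of the medians was 5.83 reads per kb. Median distance to the nearest ESC island hardly differed, from 25.9 kb on chromosome 19 to 31.4 kb on chromosome 3.

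**Figure D5:**
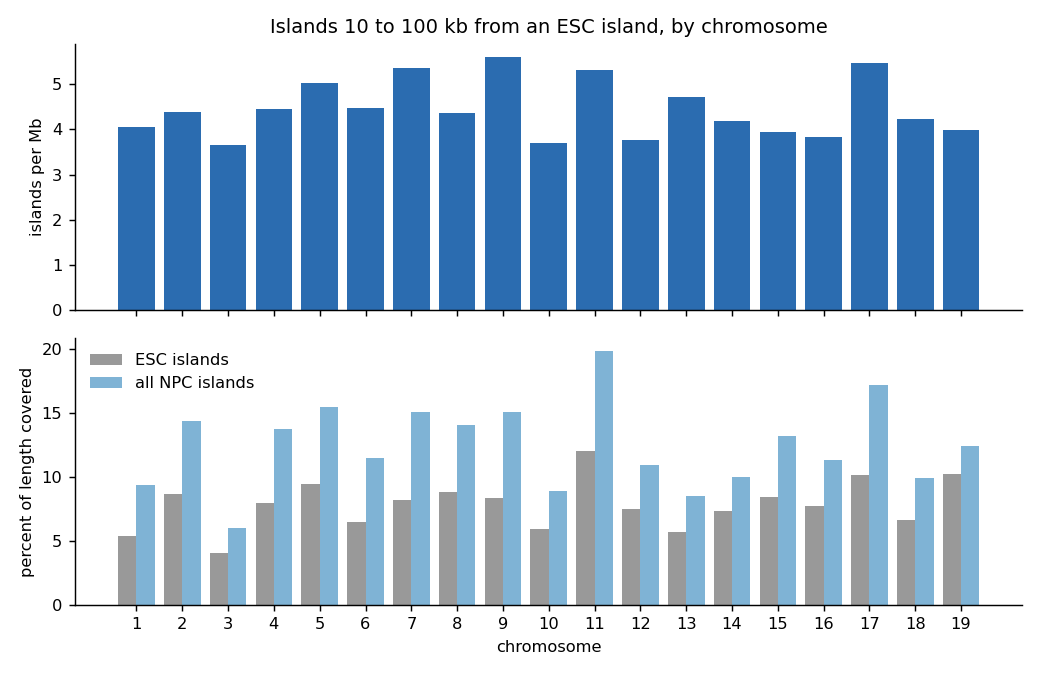
Top, members per Mb of chromosome (y axis) for chromosomes 1 to 19 (x axis), from 3.65 to 5.60. Bottom, percent of each chromosome's length covered by ESC islands (grey) and by all NPC islands (light blue), highest for both on chromosome 11.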

How the data were processed

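The submitters' processing notes name SICER 1.1, bedtools 2.10.1, SAMtools 0.1.7, Bowtie 0.12.7, CASAVA 1.8.2 and build mm9. SICER joins enriched windows into islands. Per the names of the lists, windows were 200 bp, gaps of 600 bp were bridged and the false discovery rate was 0.01. The authors deposited per island its position and a whole number, read as the count of ChIP reads, scaled to neither depth nor input. Duplicate removal and the use of the input are not given in the sources used here. Input libraries were not analysed here.

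Starts and ends were both moved by 1 to count from 1. Distances equalled those of bedtools 2.31.1 for all 48170 NPC islands, and the code found all 455 members of a simulated list with 0 false ones. Named members were the 5 with most reads, the 5 densest and least dense, 5 clusters with most members (ties, here 6 clusters of 8, broken by reads), 1 in each of the 3 fullest windows, 1 of median reads and those at the limits. Members, lists and named regions were chosen with earlier results of these data known. Intervals of the reads and density of single islands are exact 95% Poisson, and those of shares are Clopper-Pearson. Median intervals come from ranked values across islands taken as independent draws. For differences between medians, opposite ends of 2 such intervals were subtracted, so their level is not exactly 95%. No molecular identifiers are recorded, so reads may not be independent molecules. The Poisson intervals cover counting error only, and no interval covers variation between cultures. Gene and sequence results were not run for want of mm9 references. Python 3.11.15, numpy 2.4.6, pandas 2.3.3, scipy 1.17.1 and matplotlib 3.10.9 were used.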

Additional observations from a re-analysis of the deposited data

How the results depend on the processing

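Among 72 recomputed values, 38 fell inside the interval around the reported one (counts, within 1.5 times) and 34 did not. Only the differences between median densities could change sign, as the other values are always positive. These differences kept their sign, so the order of density by distance was the same, in the 6 settings in which they were recomputed. All settings reuse the same 2 lists, and the rule used density and distance, so the kept order is no independent check. Variation between cultures is outside these intervals, and the cause was not tested for any shift. The count of members was 11069 when distance was counted as the coordinate difference, 11147 at 5 to 50 kb and 8626 at 20 to 200 kb.

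Requiring the median reads of the NPC list (313) left 4553 members, with medians of 415 reads, 75 reads per kb, 27.8 kb to an ESC island and 6.4 kb to an NPC island, 65.0% with ESC islands on both sides, 31.1% in clusters and 66.4% of the range without a shared base. Requiring the median reads of the ESC list gave, in the same order, 287 reads, 72.9 reads per kb, 34.8 kb, 4 kb, 42.7% (no longer a majority), 46.5% and 78.1%. Merging NPC islands across gaps of up to 2000 bp gave 266 reads, 70 reads per kb, 29.6 kb, 11.2 kb, 58.3%, 22.7% and 72.6%. Without dense narrow ESC islands (at most 2000 bp, at least 120 reads per kb) the values that moved were 72.5 reads per kb, 29.8 kb, 56.8%, 43.0% and 70.8%, and the median of islands beyond 100 kb minus that of members was -3.82 reads per kb. Cutting the NPC list to 39508 islands gave 290 reads, 72.9 reads per kb and 5.6 kb to an NPC island. Clusters joined at 5 kb held 31.7% of members and at 20 kb 53.9%. Counting an island as shared only from 50% of its length raised the share without overlap to 74.4%. The alternative for promoters was not run. Depth beyond the island reads is unknown, which limits what a missing ESC call can show.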

Other observations

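A few members stood far from any other NPC island; they were named after their values were seen. The 3 with the widest gap were at 147378401 to 147382400 and 102676201 to 102679200 on chromosome 1 and at 92421201 to 92423400 on chromosome 9, with the next NPC island 1654, 1630 and 1611 kb away. They held 248, 187 and 161 reads at 62.0, 62.3 and 73.2 reads per kb. Each had a narrow dense ESC island 13 to 55 kb away, of 143 to 191 reads per kb over 800 to 1600 bp. That no NPC island overlapped these ESC islands follows from the choice of members by their gap to the next NPC island.

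Some ESC islands were the nearest one for many members, and these too were named after their values were seen. An ESC island at 119759601 to 119760800 on chromosome 5, with 166 reads, was nearest to 11 members, as was one at 74310801 to 74314600 on chromosome 17, with 237 reads. One at 34058401 to 34060400 on chromosome 14, with 150 reads, was nearest to 10.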
